A study of Mus musculus with 20 samples.

Results

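A set of secreted signals of the chemokine and inflammatory cytokine kind was followed through mammary tumors and tumor cell lines of the MMTV-PyMT mouse, in which the MMTV promoter drives the polyoma middle T oncogene and mammary carcinomas form. They are Cxcl1, Cxcl5, Cxcl10, Cxcl12, Cxcl16, Ccl2, Ccl20, Csf1, Il6 and Il33, found by matching their symbols to the Ensembl identifiers of the count tables, and they make up 10 of the 45706 genes counted. The study asked what loss of the lysosomal aspartic protease cathepsin D (gene Ctsd) does to such tumors. Tumor RNA came from 18-week-old mice, 4 controls and 4 MMTV-cre;Ctsd-/- animals in which the same MMTV promoter drives cre, so that Ctsd is deleted in the mammary epithelium and kept in stroma and blood cells. The labels call the controls wild type, whereas the methods count mice with floxed Ctsd alleles as controls too. Cell RNA came from spontaneously immortalized tumor cells of 1 Ctsd+/+ line and 1 Ctsd-/- line, each cultured in starvation medium with 1% fetal calf serum. Cultures of 10 days are named 1% FCS and those of 12 weeks 1% FCS LT, and each of the 4 groups has 3 replicates. All mice and both lines carry the oncogene on a C57BL/6N background. Since each genotype of cells is 1 line, genotype and line cannot be told apart, and the p-values measure the spread between cultures.

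Chemokines are small secreted proteins that guide leukocytes along gradients by binding to G protein-coupled receptors. CXCL1 and CXCL5 bind CXCR2 and attract neutrophils, CXCL10 is induced by interferon and binds CXCR3 on T cells, CXCL12 binds CXCR4 and ACKR3, CXCL16 is made as a membrane protein and binds CXCR6, CCL2 binds CCR2 and recruits monocytes, and CCL20 binds CCR6. CSF1 is the growth and survival factor of macrophages, IL-6 signals through gp130 to STAT3, and IL-33 is a nuclear alarmin of epithelial and stromal cells that is read by the receptor ST2 (gene Il1rl1).

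Gene counts ranged from 49725437 to 64291587 per tumor and from 33622831 to 40239762 per cell sample. Values are read counts scaled to library size (CPM) after scaling of the libraries with TMM, separately for tumors and cells. Ctsd ranged from 1266 to 4198 CPM in Ctsd+/+ cells and from 114 to 192 CPM in Ctsd-/- cells, and from 1780.3 to 2616 CPM in control tumors and from 360.0 to 1294 CPM in MMTV-cre;Ctsd-/- tumors. In cells, the pan-leukocyte markers summed to 0.314 to 2.10 CPM with Cd52 at 0 in every group, whereas in tumors they summed to 252 to 448 CPM in controls and 232 to 395 CPM in MMTV-cre;Ctsd-/- animals. The 1% FCS Ctsd+/+ cells stood apart from the other 3 groups of cells. Their 6 epithelial markers (Epcam, Cdh1 and 4 keratins) summed to 962 to 2072 CPM, against 6034 to 13855.8 CPM in the other groups. Their 5 fibroblast markers summed to 625 to 2613 CPM, against 2.54 to 14.6 CPM elsewhere, carried by the collagen gene Col1a1 with 530.5, 2319 and 1459.5 CPM in replicates 1 to 3, while Lum was at 0 in all 3. Each comparison with this group therefore moves together with these markers, and their part in the results was not tested. In bulk RNA fewer cells of a type and less RNA per cell cannot be told apart.

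**Figure D1:**
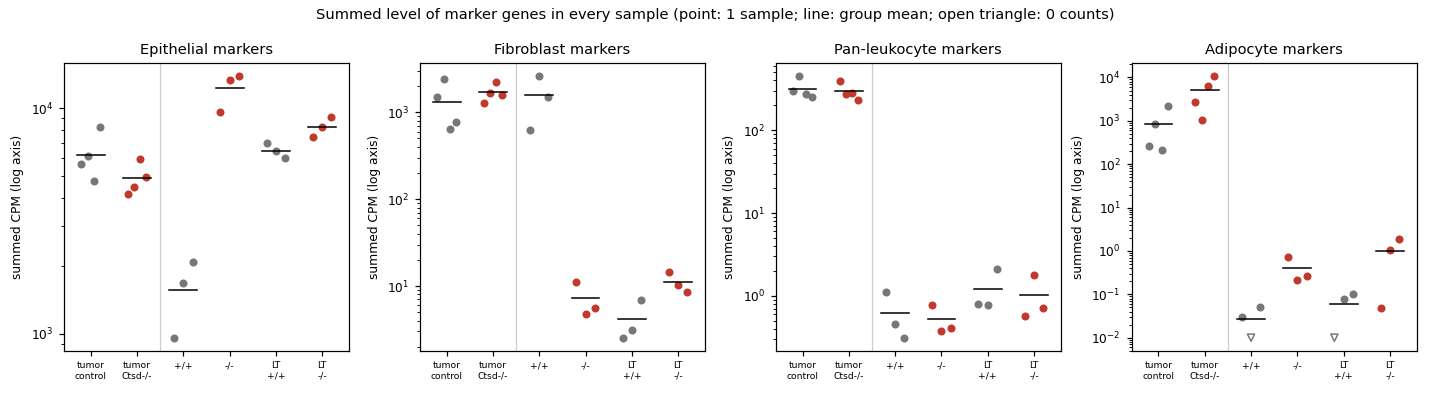
Summed CPM (log axis) of epithelial, fibroblast, pan-leukocyte and adipocyte marker genes in each sample, with tumors left of the grey line and cells right of it, Ctsd-competent samples in grey and Ctsd-/- samples in red. The 1% FCS Ctsd+/+ cells lie between 625 and 2613 CPM for fibroblast markers, while the other 9 cell samples lie at 14.6 CPM or below.

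RefSeq promoter sequences (GRCm38.p6) were at hand for 7 of the 10 members, Cxcl1, Cxcl10, Cxcl12, Ccl20, Csf1, Il6 and Il33. The 250 bases before the start site are shown for 5 of them, which are the members with such a sequence that changed in Ctsd+/+ cells during long-term starvation. The first pair rose and the other 3 fell. Capitals mark matches to 6 motifs searched on both strands (the TATA box on the gene's strand only): the NF-kB consensus, the ISRE (GAAA, any 2 bases, GAAA), the AP-1 motif TGANTCA, the CRE TGACGTCA, the C/EBP motif TTNNGNAA and the TATA box TATAAA. The windows are chr5:90890995-90891244 on the + strand, chr1:83116516-83116765 on the + strand, chr6:117168285-117168534 on the + strand, chr3:107760470-107760719 on the - strand and chr5:30012864-30013113 on the + strand, each printed 5′ to 3′ along the gene.
Cxcl1: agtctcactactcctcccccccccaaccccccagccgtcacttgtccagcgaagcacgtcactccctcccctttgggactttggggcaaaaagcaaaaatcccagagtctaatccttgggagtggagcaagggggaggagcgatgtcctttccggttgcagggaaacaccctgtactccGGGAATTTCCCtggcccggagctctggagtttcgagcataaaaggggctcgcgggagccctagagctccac
Ccl20: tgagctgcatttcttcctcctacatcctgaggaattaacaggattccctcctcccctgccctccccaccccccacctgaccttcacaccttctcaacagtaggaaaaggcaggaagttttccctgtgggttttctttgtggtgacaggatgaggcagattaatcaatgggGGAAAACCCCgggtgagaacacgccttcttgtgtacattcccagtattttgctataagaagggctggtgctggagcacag
Cxcl12: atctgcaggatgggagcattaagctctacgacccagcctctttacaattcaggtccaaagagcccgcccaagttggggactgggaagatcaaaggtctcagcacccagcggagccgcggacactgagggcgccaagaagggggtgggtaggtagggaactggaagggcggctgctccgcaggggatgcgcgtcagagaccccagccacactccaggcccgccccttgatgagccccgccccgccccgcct
Csf1: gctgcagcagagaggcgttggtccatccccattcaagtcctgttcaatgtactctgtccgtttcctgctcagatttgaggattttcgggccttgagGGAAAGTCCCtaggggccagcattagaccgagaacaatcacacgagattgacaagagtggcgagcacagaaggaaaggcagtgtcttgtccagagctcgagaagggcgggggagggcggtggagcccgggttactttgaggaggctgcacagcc
Il6: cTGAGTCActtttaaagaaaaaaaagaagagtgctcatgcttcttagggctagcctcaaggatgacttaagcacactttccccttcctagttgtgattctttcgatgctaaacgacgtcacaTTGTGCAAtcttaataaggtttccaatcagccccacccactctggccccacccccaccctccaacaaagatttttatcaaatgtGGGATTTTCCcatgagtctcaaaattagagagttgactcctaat

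The NF-kB consensus was present in 5 of the 7 members (Cxcl1, Cxcl10, Ccl20, Csf1 and Il6), against 7.25% of all 32851 promoter windows of this length. In Cxcl1 it spans bases -71 to -61 on both strands in overlap, in Ccl20 bases -80 to -71, in Csf1 bases -154 to -145 and in Il6 bases -44 to -35. It was thus present in members that rose and in members that fell. The AP-1 motif was present in Cxcl10 and Il6 (6.75% of all windows), the C/EBP motif in Cxcl10, Il6 and Il33 (36.8%), the ISRE in Cxcl10 (2.98%), the TATA box in Il33 (7.59%) and the CRE in 0 of the 7 (1.55%). The window of Cxcl12 held none of the 6. A match describes these letters and does not show that a factor binds, and no match says only that the letters are not in this window.

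**Figure D2:**
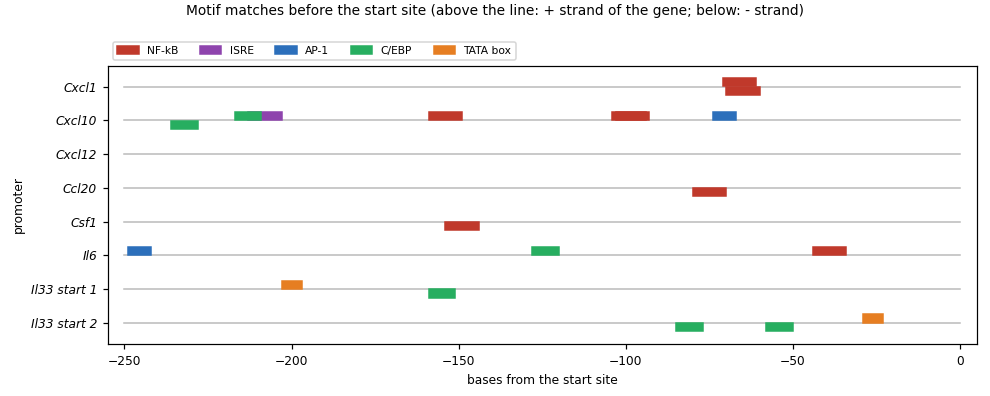
Matches to the motifs in the 250 bases before the start sites of 7 members, with the distance from the start site in bases on the x axis and 1 line per promoter (Il33 has 2 starts). Red boxes, the NF-kB consensus, lie at bases -71 to -61 in Cxcl1 and -44 to -35 in Il6, and Cxcl12 has no box.

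In cells 8 of the 10 members changed between 10 days and 12 weeks of starvation in the Ctsd+/+ line, 4 upwards and 4 downwards, whereas none was called over the same time in Ctsd-/- cells. A gene was called where its absolute log2 fold change (FC) exceeded 1 and its adjusted p was under 0.05. By this rule 8 members changed in Ctsd+/+ cells, where 23.4% of all 15178 genes tested did. The members were chosen with earlier results of these data known. Their counts beside the shares of all genes, here and in the later comparisons, are therefore a description and no test. Cxcl1, Cxcl5, Cxcl16 and Ccl20 rose (11.0% of all genes rose) and Cxcl12, Csf1, Ccl2 and Il6 fell (12.3% fell), and the replicates of the 2 conditions did not overlap for any of these 8 (53.7% of all genes did not overlap). In Ctsd-/- cells 0 of 10 members were called in edgeR's test and in DESeq2 and limma-voom, where 1.48% of all genes were called by edgeR (1.11% higher and 0.369% lower). An unadjusted p under 0.05 was reached there by 1 member in edgeR (Csf1), by 2 in DESeq2 and by 1 in limma-voom, and a single member, Ccl2, did not overlap (25.4% of all genes did not). The 2 lines also differed at both time points. In 1% FCS, 7 members were called against 25.0% of all genes, 3 of them higher in Ctsd-/- cells (10.3% of all genes) and 4 lower (14.6%), and 6 members did not overlap (55.2%). In 1% FCS LT, 6 were called against 19.4% of all genes, 4 higher (9.24%) and 2 lower (10.1%), and 5 did not overlap (54.2%). The median log2 FC of the 10 members was -0.62 over time in Ctsd+/+ cells, 0.28 in Ctsd-/- cells (0.20 with Il6 set to the level of 3 counts where it was at 0), -1.50 between lines in 1% FCS and 0.51 in 1% FCS LT, while that of all genes was at most 0.0145 in size. Comparisons of the same group of samples are not independent, as each group of cells enters 2 of these 4 comparisons.

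**Figure D3:**
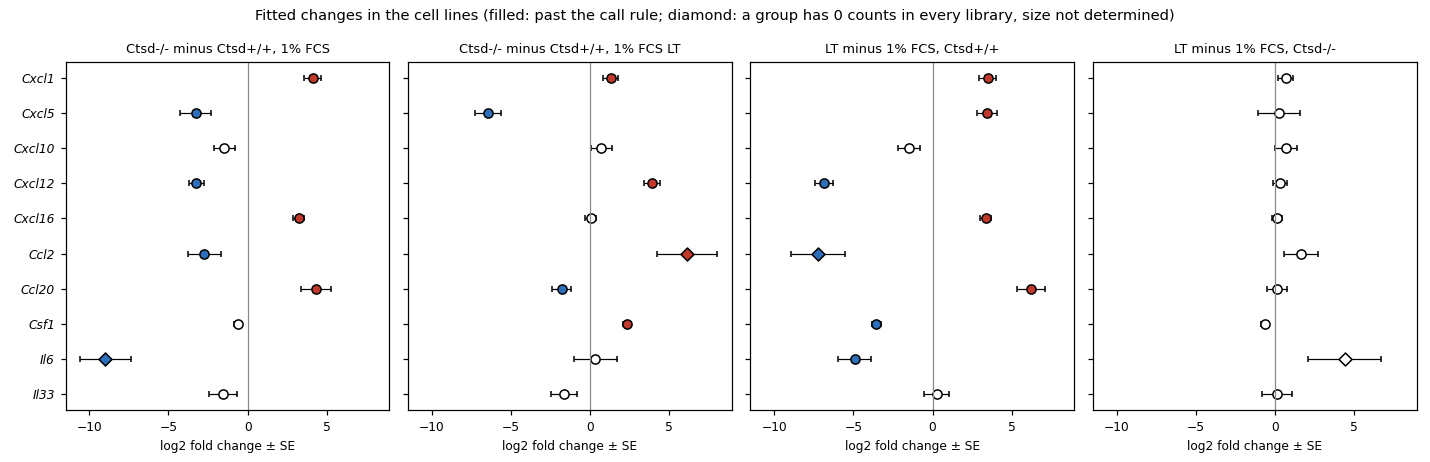
Log2 FC with its SE of the 10 members in the 4 comparisons between cell groups, filled in red (higher) or blue (lower) where called, with a diamond where a group had 0 counts in all its libraries. In Ctsd+/+ cells 4 members lie to the right and 4 to the left of 0 among those called, and in Ctsd-/- cells all 10 are open.

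The neutrophil attractants Cxcl1 and Cxcl5 followed different courses in the 2 lines. Cxcl1 (chr5:90891241-90893115) was low after 10 days in the Ctsd+/+ line, at 1.05, 0.488 and 2.12 CPM, and higher in the Ctsd-/- line, at 25.9, 16.8 and 20.6 CPM. After 12 weeks it had 7.59, 16.9 and 16.6 CPM in Ctsd+/+ and 15.6, 33.2 and 52.6 CPM in Ctsd-/- cells. The 1% FCS Ctsd+/+ cells were thus low in all 3 replicates, without overlap with any other group of cells, while the long-term groups overlapped. The log2 FC of Ctsd-/- over Ctsd+/+ was 4.09 in 1% FCS (SE 0.561, adjusted p = 0.000107) and 1.30 in 1% FCS LT (SE 0.478, adjusted p = 0.0486). The latter call was lost when any single replicate of its groups other than Ctsd-/- replicate 1 was left out (adjusted p = 0.0681 to 0.212). In Ctsd+/+ cells Cxcl1 rose over time with a log2 FC of 3.47 (SE 0.552, adjusted p = 0.000345). The genotype difference shrank by 2.79 on the log2 scale from short-term to long-term starvation (adjusted p = 0.0118).

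Cxcl5, which lies in the same chemokine cluster as Cxcl1 (chr5:90759360-90761624), went the other way between lines. It had 21, 5 and 4 counts in 1% FCS Ctsd+/+ cells and 85, 119 and 162 counts in 1% FCS LT Ctsd+/+ cells. The Ctsd-/- line had 0, 2 and 1 counts and 0, 1 and 3 counts at the same times. Every Ctsd+/+ replicate lay above every Ctsd-/- replicate, and the long-term Ctsd+/+ replicates, at 2.30 to 4.11 CPM, lay above all others. Summed counts per scaled library were 10.7 times as high in Ctsd+/+ as in Ctsd-/- cells in 1% FCS (95% exact counting interval 3.32 to 54.7, adjusted p = 0.0156) and 97.9 times in 1% FCS LT (37.9 to 361, adjusted p = 9.74e-05). Cxcl5 rose in Ctsd+/+ cells with a log2 FC of 3.43 (SE 0.645, adjusted p = 0.00108). The 1% FCS difference was not called without Ctsd+/+ replicate 1 (adjusted p = 0.0906), which held 21 of the 30 counts, or without Ctsd-/- replicate 1 (adjusted p = 0.0539). The change in the genotype difference did not pass in edgeR (log2 FC -3.19, SE 1.71, adjusted p = 0.187), but it was called by limma-voom (-3.71, adjusted p = 0.0468) and by edgeR without 1% FCS Ctsd+/+ replicate 1 (-4.36, adjusted p = 0.0457). With a replicate left out, the ratio ranged from 4.71 (without Ctsd+/+ replicate 1) to 21.5 (without Ctsd-/- replicate 2) in 1% FCS and from 64.4 (without Ctsd-/- replicate 1) to 259 (without Ctsd-/- replicate 3) in 1% FCS LT.

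Cxcl16 (chr11:70453983-70459984), which encodes the membrane-bound ligand of CXCR6, was the most abundant of the risers. After 10 days its CPM was 27.8, 26.0 and 37.6 in the Ctsd+/+ replicates and 312, 253 and 295 in the Ctsd-/- replicates. After 12 weeks its CPM was 259.8, 289 and 385 with Ctsd and 181, 246 and 524 without it. Of the 4 groups the 1% FCS Ctsd+/+ cells alone were low, and the other 3 overlapped. The log2 FC between lines was 3.23 in 1% FCS (SE 0.349, adjusted p = 1.78e-05) and 0.03 in 1% FCS LT (SE 0.318, adjusted p = 0.957), and the rise in Ctsd+/+ cells was 3.35 (SE 0.350, adjusted p = 1.63e-05). The difference between lines fell by 3.21 between the time points (SE 0.463, adjusted p = 0.000362).

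Ccl20 (chr1:83116766-83119167), the ligand of CCR6, rose most among the members in Ctsd+/+ cells by the fitted values. It had 2, 0 and 1 counts in 1% FCS and 37, 116 and 123 counts in 1% FCS LT Ctsd+/+ cells. Its Ctsd-/- counterpart had 36, 13 and 23 counts in 1% FCS and 9, 32 and 43 counts in 1% FCS LT. The 1% FCS Ctsd+/+ cells were lower than any other replicate, and the long-term groups overlapped. The summed counts per scaled library were 84.2 times as high after long-term starvation of Ctsd+/+ cells (95% exact counting interval 28.5 to 411, adjusted p = 0.000148), and in 1% FCS they were 22.5 times as high in Ctsd-/- as in Ctsd+/+ cells (7.39 to 111, adjusted p = 0.00241). Without 1% FCS Ctsd+/+ replicate 1, which held 2 of that group's 3 counts, these ratios were 172 (30.6 to 6810) and 45.8 (7.97 to 1836). In 1% FCS LT, Ccl20 was lower in Ctsd-/- cells, with a log2 FC of -1.79 (SE 0.594, adjusted p = 0.0315). That call was lost without Ctsd+/+ replicate 2 or 3 or Ctsd-/- replicate 1 or 2 (adjusted p = 0.0672 to 0.101). The change in the genotype difference was called (adjusted p = 0.00158).

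Cxcl12 (chr6:117168535-117181367), the ligand of CXCR4 and ACKR3, crossed over between the lines. Replicates 1 to 3 of the 1% FCS Ctsd+/+ cells had 1099.6, 629 and 337 CPM, and those of the 1% FCS LT Ctsd+/+ cells 8.91, 3.94 and 5.32 CPM. The Ctsd-/- line stood at 93.2, 66.3 and 57.9 CPM after 10 days and at 126, 96.1 and 46.7 CPM after 12 weeks. The Ctsd+/+ line thus lay above all Ctsd-/- replicates after 10 days and below all of them after 12 weeks, and the Ctsd-/- groups overlapped. The log2 FC over time in Ctsd+/+ cells was -6.83 for Cxcl12 (SE 0.571, adjusted p = 2.98e-06). The log2 FC of Ctsd-/- over Ctsd+/+ was -3.25 in 1% FCS (SE 0.478, adjusted p = 0.000179) and 3.89 in 1% FCS LT (SE 0.502, adjusted p = 0.000102). The change from one to the other, 7.13 (SE 0.693, adjusted p = 2.51e-05), kept its call in every alternative computed. In the Ctsd-/- line the change was 0.30 (SE 0.440, adjusted p = 0.771).

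Csf1 (chr3:107741048-107760469), which encodes the growth factor of macrophages, was abundant in 3 of the 4 groups of cells and low in the fourth. Its CPM after 10 days was 937, 648 and 524 in the Ctsd+/+ line and 548, 455 and 359 in the Ctsd-/- line. The 12-week cultures had 54.7, 62.3 and 62.0 CPM with Ctsd and 370.0, 320.1 and 199.8 CPM without it. The long-term Ctsd+/+ replicates lay close together and below all others, while the short-term groups overlapped. Csf1 fell in Ctsd+/+ cells with a log2 FC of -3.56 (SE 0.276, adjusted p = 1.79e-06) and was higher in long-term Ctsd-/- cells with a log2 FC of 2.31 (SE 0.262, adjusted p = 3.81e-05). The difference in 1% FCS did not pass (log2 FC -0.63, SE 0.250, adjusted p = 0.0546), nor did the change in Ctsd-/- cells (log2 FC -0.61, SE 0.250, adjusted p = 0.223). The genotype difference changed by a log2 value of 2.95 (SE 0.360, adjusted p = 0.000112).

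Ccl2 and Il6, both products of activated stromal and myeloid cells in many tissues, were sparse in cells. Ccl2 (chr11:82035571-82037453) had 1, 9 and 44 counts in 1% FCS Ctsd+/+ cells and 0 in all 3 of the 1% FCS LT Ctsd+/+ replicates. In Ctsd-/- cells it had 4, 3 and 1 counts in 1% FCS and 12, 11 and 5 counts in 1% FCS LT. The 1% FCS Ctsd+/+ replicates spread so widely that they overlapped the 1% FCS Ctsd-/- cells, whereas every replicate of the long-term Ctsd-/- cells had more than the 0 of the long-term Ctsd+/+ cells. Against the level of 3 counts in a library, Ccl2 was at least 5.99-fold lower in long-term than in short-term Ctsd+/+ cells (adjusted p = 0.00667) and at least 2.84-fold higher in long-term Ctsd-/- than in long-term Ctsd+/+ cells (adjusted p = 0.0268). The former bound was at least 1.88-fold without short-term Ctsd+/+ replicate 3, which held 44 of the 54 counts, and the call remained (adjusted p = 0.0169). The latter call was lost when any single replicate other than Ctsd-/- replicate 3 was left out (adjusted p = 0.056 to 0.0594). In 1% FCS it was lower in Ctsd-/- cells with a log2 FC of -2.74 (SE 1.03, adjusted p = 0.0496), a call that DESeq2 (adjusted p = 0.0519), limma-voom (adjusted p = 0.201) and edgeR with the replicate number as a block (adjusted p = 0.115) did not make, and leaving out any single replicate other than Ctsd+/+ replicate 1 removed it too. Without Ctsd+/+ replicate 3 the log2 FC was -1.08 (adjusted p = 0.367).

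Il6 (chr5:30013114-30019981) was at 0 in all 3 of the 1% FCS Ctsd-/- replicates and had 45, 111 and 12 counts in 1% FCS Ctsd+/+ cells. The long-term groups had 1, 2 and 3 counts in Ctsd+/+ and 2, 6 and 0 counts in Ctsd-/- cells. The short-term Ctsd+/+ cells were thus higher than every other replicate, and the long-term groups overlapped near 0. Il6 was at least 19.0-fold higher in 1% FCS Ctsd+/+ than in 1% FCS Ctsd-/- cells, against the level of 3 counts (adjusted p = 0.00115). Its summed counts per scaled library were 30.6 times as high in short-term as in long-term Ctsd+/+ cells (95% exact counting interval 13.8 to 84.6, adjusted p = 0.00356). Short-term Ctsd+/+ replicate 2 held 111 of the 168 counts. Without it the former bound was at least 9.38-fold (adjusted p = 0.00275) and the latter ratio 15.1 (6.54 to 43.0, adjusted p = 0.0118). The short-term Ctsd+/+ replicates 1 to 3, from which the high values of both genes come, had summed fibroblast markers of 625, 2613 and 1509 CPM, and the part of these cells in the values was not tested.

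Cxcl10 and Il33 were called by edgeR in none of the comparisons of cells when all samples and the filter on low counts were used. Cxcl10 (chr5:92346638-92348889), the interferon-induced ligand of CXCR3, had 1.77, 1.47 and 4.45 CPM after 10 days and 0.756, 0.293 and 1.67 CPM after 12 weeks in the Ctsd+/+ line. The Ctsd-/- line had 1.56, 0.383 and 0.827 CPM and then 2.01, 1.72 and 0.750 CPM. All 4 groups overlapped with their neighbours in level. Over time in Ctsd+/+ cells Cxcl10 had a log2 FC of -1.49 (adjusted p = 0.0888), which was called without the filter (adjusted p = 0.0483) and without long-term Ctsd+/+ replicate 3 (adjusted p = 0.0301). Between lines in 1% FCS its log2 FC was -1.47 (adjusted p = 0.0913), which was called without Ctsd-/- replicate 1 (adjusted p = 0.0485). Il33 (chr19:29925114-29960718) had between 2 and 33 counts in the 12 cell samples, with 33 in replicate 1 of the 1% FCS Ctsd+/+ cells and 31 in replicate 2 of the 1% FCS LT Ctsd+/+ cells. Without the former replicate, Il33 rose in Ctsd+/+ cells and was called (adjusted p = 0.0225), against a log2 FC of 0.25 (adjusted p = 0.815) over all replicates.

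**Figure D4:**
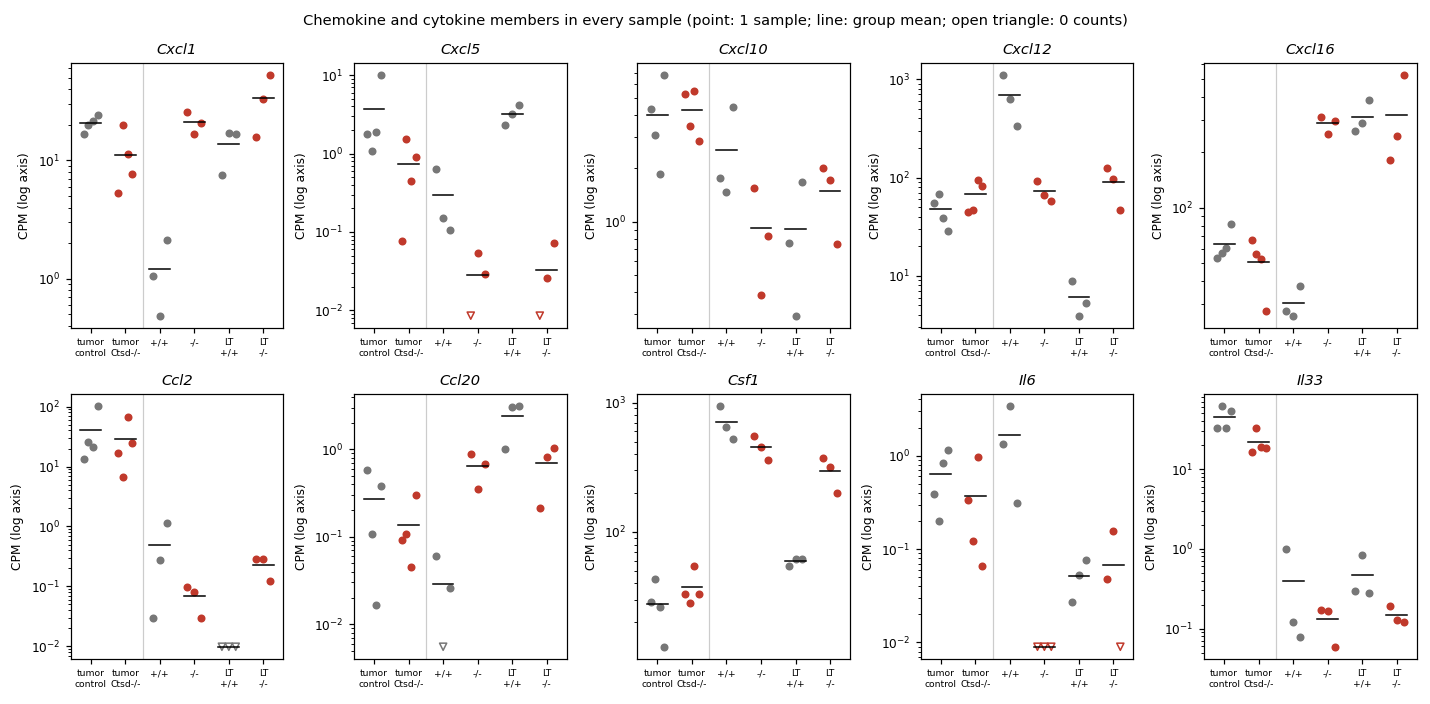
CPM of the 10 members (log axis) in each of the 20 samples, with tumors left and cells right of the grey line, grey for Ctsd-competent and red for Ctsd-/- samples, and open triangles for 0 counts. Among the cells Cxcl12 and Csf1 are lowest in the 1% FCS LT Ctsd+/+ cells (3.94 to 8.91 and 54.7 to 62.3 CPM), Cxcl1, Cxcl16 and Ccl20 in the 1% FCS Ctsd+/+ cells.

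The study's comparison corrected for the effect of long-term culture in Ctsd+/+ cells asks whether the genotype difference changed with time, and 7 of the 10 members were called in it against 19.1% of all genes, 4 higher (11.0% of all genes) and 3 lower (8.12%). The median log2 FC of the members was 1.04 and that of all genes tested -0.0035. The higher ones were Cxcl12, Csf1, Ccl2 and Il6 and the lower ones Cxcl1, Cxcl16 and Ccl20. This comparison uses all 12 samples and so shares them with the 4 above. Without long-term Ctsd-/- replicate 2 the call of Il6 was lost (adjusted p = 0.106). For Ccl2 and Il6 the size is not determined, since a group was at 0. The descriptions of 8 cell samples, 2 in each group, end in the same code, whose meaning the labels do not give. Within these 8 samples 9 members were called, against 18.8% of all genes. There Cxcl5 (log2 FC -5.93, adjusted p = 0.0139) and Cxcl10 (4.12, adjusted p = 0.0126) were called as well. In the same samples, 7 members were called between lines in 1% FCS (24.2% of all genes), 4 in 1% FCS LT (19.6%), 10 over time in Ctsd+/+ cells (22.9%) and 0 in Ctsd-/- cells (3.19%). Without the 1% FCS Ctsd+/+ cells in the edgeR fit, 6 members were again called between the long-term groups, against 19.8% of all genes. Il33 (log2 FC -1.65, adjusted p = 0.0326) was among them, and Ccl2 was removed by the filter on low counts. In Ctsd-/- cells over time 0 members were called in that fit, against 2.2% of all genes.

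**Figure D5:**
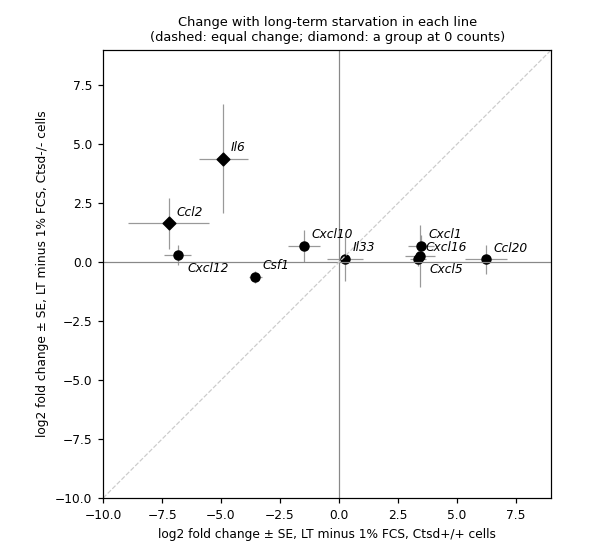
Log2 FC with SE of 1% FCS LT over 1% FCS in Ctsd+/+ cells (x axis) and in Ctsd-/- cells (y axis), 1 point per member, with diamonds for members with a group at 0 counts and a dashed line of equal change. Along x the members spread from -7.23 (Ccl2) to 6.23 (Ccl20), and along y 8 of the 10 stay within 1 of 0.

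In tumors the members were measured in tissue that held leukocytes, vessels and fat, and of the 9 members with enough counts to be tested 3 were lower in MMTV-cre;Ctsd-/- tumors at the study's threshold, an unadjusted p under 0.1. Of all 18617 genes tested 8.27% were lower, 8.44% higher and 16.7% either. An adjusted p under 0.05 was reached by 0 members in edgeR, DESeq2 or limma-voom, and in edgeR by 0.00537% of all genes. The 3 were Il33, Cxcl1 and Cxcl5. The median log2 FC of the 9 members was -0.50 and that of all genes 0.00. Ccl20, with 1 to 39 counts per tumor, was not tested.

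Il33 was the clearest of them and the only member whose groups did not overlap (1.89% of all genes were lower without overlap). It had 33.0, 61.3, 32.5 and 52.8 CPM in control tumors 1 to 4 and 16.2, 32.3, 19.0 and 18.4 CPM in MMTV-cre;Ctsd-/- tumors 1 to 4. The highest MMTV-cre;Ctsd-/- tumor stayed under the lowest control, but the gap between 32.3 and 32.5 CPM was small. The log2 FC was -1.06 (SE 0.296, unadjusted p = 0.0048, adjusted p = 0.416 in edgeR), and between -1.33 and -0.87 when a tumor was left out. In cells Il33 did not exceed 0.989 CPM.

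Cxcl1 had 16.7, 20.03, 21.5 and 24.1 CPM in control tumors and 5.36, 20.1, 11.2 and 7.70 CPM in MMTV-cre;Ctsd-/- tumors. The second of the latter lay among the controls and the other 3 below all of them. The log2 FC of Cxcl1 was -0.89 (SE 0.369, unadjusted p = 0.0358, adjusted p = 0.552 in edgeR). Cxcl5 had 1.78, 1.06, 1.89 and 10.0 CPM in control tumors and 0.0759, 1.54, 0.449 and 0.896 CPM in MMTV-cre;Ctsd-/- tumors. Control tumor 4 stood far above the rest, and without it the log2 FC moved from -2.31 (unadjusted p = 0.0284, adjusted p = 0.544) to -1.10 and was no longer called. Neutrophil markers summed to 16.3, 18.0, 37.0 and 75.3 CPM in control tumors 1 to 4, so that control tumor 4 was highest for these markers as well. In MMTV-cre;Ctsd-/- tumors they summed to 22.6 to 25.6 CPM. Their part in the values of Cxcl1 and Cxcl5 was not tested.

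The other 6 members tested did not pass in tumors and their groups overlapped. Ccl2 had 13.3, 25.9, 21.04 and 102 CPM in control tumors and 16.9, 6.70, 65.9 and 25.2 CPM in MMTV-cre;Ctsd-/- tumors. The fitted log2 FC of Ccl2 was -0.50 (SE 0.740, unadjusted p = 0.518 in edgeR), with the opposite sign without control tumor 4 (0.52). Cxcl12 had 28.6 to 68.7 CPM in control and 44.3 to 95.1 CPM in MMTV-cre;Ctsd-/- tumors, and Csf1 12.98 to 43.4 and 28.1 to 55.0 CPM. Cxcl16 had 53.5 to 82.0 and 27.6 to 67.2 CPM, Cxcl10 1.87 to 6.77 and 2.87 to 5.48 CPM, and Il6 0.201 to 1.14 and 0.0663 to 0.958 CPM. Their log2 FCs lay between -0.77 (Il6) and 0.50 (Cxcl12). Adipocyte markers summed to 209 to 2149 CPM in control tumors and 1045 to 10738.5 CPM in MMTV-cre;Ctsd-/- tumors, with all 5 of them higher at an unadjusted p under 0.1, and endothelial markers to 45.0 to 94.4 and 60.7 to 234 CPM, with 4 of 5 higher. Macrophage markers summed to 482 to 1080.1 CPM in control and 540.3 to 944 CPM in MMTV-cre;Ctsd-/- tumors, with 0 of 7 called. Epithelial markers summed to 4751 to 8257 CPM in control and 4167 to 5964 CPM in MMTV-cre;Ctsd-/- tumors, with 0 of 6 called by edgeR. Fibroblast markers summed to 642 to 2420 and 1298 to 2251 CPM, with 1 of 5 higher. The part of these cell types in the members' values, those of Il33 included, was not tested. A code ends the description of each tumor and differs between, but not within, the 2 genotypes, so that what it stands for and genotype cannot be told apart.

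Levels were compared between members per length of exon (RPKM). In cells the order was led by Cxcl16 and Csf1 in 3 of the 4 groups. In 1% FCS Ctsd-/- cells they had 94.9 ± 10.1 and 86.0 ± 17.9 RPKM (SD, n = 3), a difference within the spread. In 1% FCS LT Ctsd-/- cells they had 105 ± 60.3 and 56.2 ± 16.6 RPKM (SD, n = 3), also within the spread, and in 1% FCS LT Ctsd+/+ cells 103 ± 21.8 and 11.3 ± 0.808 RPKM (SD, n = 3). In 1% FCS Ctsd+/+ cells Csf1 with 133 ± 40.1 and Cxcl12 with 84.2 ± 47.1 RPKM (SD, n = 3) led, and Cxcl16 followed with 10.1 ± 2.07 RPKM. In tumors Ccl2 had the highest mean, 35.6 ± 36.1 RPKM in control and 25.2 ± 22.8 RPKM in MMTV-cre;Ctsd-/- tumors (SD, n = 4), ahead of Cxcl16 with 20.97 ± 4.23 and 16.9 ± 5.53 RPKM, but the spread between tumors was wider than that gap. Ccl20 and Il6 were lowest in both groups of tumors.

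Among 31 other chemokine ligands, 10 passed the filter in cells and 26 in tumors. In Ctsd+/+ cells over time 3 of the 10 rose and 1 fell, where 23.4% of all genes were called. Ppbp, which like Cxcl1 and Cxcl5 encodes a ligand of CXCR2, rose with a log2 FC of 6.25 (adjusted p = 6.23e-05) to 3.87 ± 1.41 CPM (SD, n = 3), and Cx3cl1, which encodes fractalkine, rose by 1.19 (adjusted p = 0.0182). Ccl9 fell by 5.80 (adjusted p = 0.000513). Between lines 6 of the 10 were called in 1% FCS (3 in each direction, with 25.0% of all genes called) and 6 in 1% FCS LT (3 in each direction, with 19.4%). Cxcl2, another CXCR2 ligand, was higher in 1% FCS Ctsd-/- cells (log2 FC 4.60, adjusted p = 0.00415), at 0.310 CPM against 0.0102 CPM. The mean in Ctsd+/+ cells lay under the level of 3 counts in a library of that group, 0.0916 CPM, so that the size is not determined. Ppbp and Cxcl14 were lower in 1% FCS LT Ctsd-/- cells (log2 FC -3.86 and -5.81, adjusted p = 0.000504 and 0.0013), and Ccl28, a ligand of CCR10 on mucosal lymphocytes, was higher (3.81, adjusted p = 0.00507). In Ctsd-/- cells over time 0 of 10 were called by edgeR (3 had an unadjusted p under 0.05), 1 by DESeq2 and 0 by limma-voom. Of all genes, 1.48%, 3.31% and 1.14% were called there by these tools. In tumors 1 of 26 was higher and 6 were lower at an unadjusted p under 0.1, where 8.44% and 8.27% of all genes were. The groups overlapped for all 26, and 1.89% of all genes were lower without overlap.

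Of the 13 receptors of the members, 8 were tested in cells. Ackr3, the scavenging receptor of CXCL12, had 1.72 ± 0.771 CPM in 1% FCS Ctsd+/+ cells and means of 15.5 to 37.5 CPM in the other 3 groups. It was called in Ctsd+/+ cells over time (log2 FC 3.16, adjusted p = 9.03e-05) and between lines in 1% FCS (3.37, adjusted p = 5.04e-05). The lines differed in 1% FCS LT as well (1.27, adjusted p = 0.0169 in edgeR), and the genotype difference changed by -2.10 (adjusted p = 0.0126). Csf1r, the receptor of CSF1, ran opposite to its ligand in Ctsd+/+ cells. It rose by 3.11 on the log2 scale (adjusted p = 0.000363) to 55.2 ± 2.64 CPM and was lower in long-term Ctsd-/- cells (log2 FC -3.42, adjusted p = 0.000257). Il1rl1, the receptor of IL-33, had 113 ± 81.1 CPM in 1% FCS Ctsd+/+ cells, fell by 3.61 over time (adjusted p = 0.00125) and was lower in 1% FCS Ctsd-/- cells (log2 FC -6.18, adjusted p = 7.27e-05). Cxcr4 was higher in long-term Ctsd-/- cells (2.54, adjusted p = 0.0186) at 0.671 CPM. In all, 2 receptors were higher and 3 lower in Ctsd-/- cells in 1% FCS, 4 and 1 in 1% FCS LT, and 2 rose and 1 fell in Ctsd+/+ cells, where 25.0%, 19.4% and 23.4% of all genes were called. In Ctsd-/- cells over time 0 of 8 were called by edgeR and limma-voom, although 4 had an unadjusted p under 0.05 in each, and 3 were called by DESeq2. Of all genes, edgeR called 1.48% there, limma-voom 1.14% and DESeq2 3.31%. In tumors 1 of 11 was higher at an unadjusted p under 0.1, where 8.44% of all genes were. Of the 6 scavenger receptors and processing proteases 2 were tested in cells, Adam10 and Adam17, which cleave CXCL16 from the membrane, and 0 of these were called in any comparison by edgeR, DESeq2 or limma-voom, since their log2 FCs stayed under 1 in size. In 1% FCS LT both had an adjusted p under 0.05. In tumors 1 of the 6 was higher at an unadjusted p under 0.1 (8.44% of all genes were).

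The NF-kB pathway list, 24 genes that were all tested, covers the transcription factors, their inhibitors and kinases, and receptors upstream of them. In Ctsd+/+ cells over time 2 rose and 2 fell, which is 4 of 24 where 23.4% of all genes were called. In Ctsd-/- cells 0 were called by edgeR (7 had an unadjusted p under 0.05), 2 by DESeq2 and 0 by limma-voom. Of all genes, 1.48%, 3.31% and 1.14% were called there by these tools. Between lines 3 were higher and 5 lower in 1% FCS (25.0% of all genes were called) and 2 higher and 4 lower in 1% FCS LT (19.4%). The kinase gene Ikbke rose in Ctsd+/+ cells (log2 FC 2.83, adjusted p = 2.86e-05), and Birc3, an inhibitor of apoptosis and itself a target of the pathway, fell (-3.08, adjusted p = 0.00021). Traf1 and Il1r1, the receptor of IL-1, were lower in Ctsd-/- cells at both times, with log2 FCs of -6.78 and -6.75 in 1% FCS (adjusted p = 1.41e-06 and 4.02e-05) and -6.15 and -2.45 in 1% FCS LT (adjusted p = 4.51e-06 and 0.00874). In tumors 0 of 24 had an unadjusted p under 0.1 by edgeR, DESeq2 or limma-voom, where 16.7%, 18.4% and 15.3% of all genes did.

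The genes whose log2 CPM ran most like a member's over the 12 cell samples, among 12635 genes with a mean of at least 1 CPM, are given as a description, since samples of a group share a line and a culture condition. They were St6galnac4 (Pearson r = 0.989) and Slc12a4 (0.986) for Cxcl12, Sigirr (0.989) and Sqor (0.986) for Cxcl16, Cd59a (0.986) and Gnas (0.983) for Csf1, Pip5k1b (0.981) and 4632411P08Rik (0.976) for Cxcl1, and Nipal2 and Pfkfb2 (both 0.970) for Ccl20. For Cxcl5 they were Hip1r (0.978) and AU021092 (0.971), and for Il6 Prrc1 (0.962) and Vasn (0.960). For the sparse or even members Cxcl10, Ccl2 and Il33 the highest r was 0.904, 0.896 and 0.892.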

How the data were processed

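RNA sequencing of 8 tumors and 12 cell samples was used. Reads had been trimmed and then mapped with STAR to GRCm38, and the authors deposited the raw read counts of each Ensembl gene, in 3 forms by strand, without normalization. Counts regardless of strand were used for tumors, whose libraries were not stranded, and counts on the strand opposite to the gene for cells. Genes annotated antisense to Cxcl10, Cxcl16 and Ccl2 (Art3, Zmynd15 and Gm17268) overlap them. In tumors a read that overlaps both genes of such a pair therefore cannot be assigned to either. STAR leaves reads that map to several places or overlap several genes out of the counts. Rows of the count files that name no gene held 14.8% to 32.7% of a sample's reads and were left out. Symbols, positions and exon lengths were taken from GENCODE M21, which held 45143 of the 45706 identifiers. The annotation release used for counting is not given in the sources used here.

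The test was that of edgeR 4.0.16 under R 4.3.3 (filterByExpr, TMM, two-sided quasi-likelihood test, Benjamini-Hochberg adjustment over all 18617 genes tested in tumors or 15178 in cells). The 4 groups of cells were fitted together. A gene was called at an unadjusted p under 0.1 in tumors, the study's threshold, and at an adjusted p under 0.05 with an absolute log2 FC above 1 in cells. SE is the absolute log2 FC over the root of F. Where a group had 0 counts in all libraries, a fold was set against 3 counts in its smallest library, and intervals of ratios cover counting error only. Members were all named. From each other list up to 3 called genes per comparison without overlap and with the largest absolute log2 FC were named, along with the 2 genes most like each member, and not all of these are printed. The members and lists were chosen with earlier results of these data known. Alternatives were DESeq2 1.42.0, limma-voom 3.58.1, DESeq2 size factors, no filter, the other form of the counts, replicate number as a block, each replicate left out, only the 8 cell samples that share a code in their descriptions and, added after seeing the data, a fit without the 1% FCS Ctsd+/+ cells. The fit was tested on simulated data. No pair of replicates agreed within sampling noise (chi-square per gene at least 16.5).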

Additional observations from a re-analysis of the deposited data

Results flagged for a closer look

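Control tumor 4 was far above the other control tumors for Cxcl5 (10.0 CPM) and Ccl2 (102 CPM). Its gap to the next tumor made up 0.908 of the range of the group for Cxcl5 and 0.858 for Ccl2, above Dixon's 95% critical value for 4 samples. Control tumor 4 also had the highest sum of neutrophil markers among the tumors (75.3 CPM) and the fewest gene counts of them (49725437). Of 20 groups of tumors examined, chance gives about 1 in 20 such gaps at an end, and the cause was not tested.

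The genotype difference in cells changed between 1% FCS and 1% FCS LT for 7 members at an adjusted p under 0.05 in edgeR. It moved up, on the log2 scale, by 7.13 for Cxcl12, 2.95 for Csf1, 8.88 for Ccl2 and 9.30 for Il6. It moved by -2.79 for Cxcl1, -3.21 for Cxcl16 and -6.12 for Ccl20. The values for Ccl2 and Il6 rest on groups at 0 counts, so that their size is not determined. The 1% FCS Ctsd+/+ cells enter all 7 values and were high in fibroblast markers, and the part of these cells was not tested.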

How the results depend on the processing

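Of 852 values of single members under an alternative, 768 kept their direction and their side of the threshold, 18 passed it, 29 no longer did and 37 changed sign, all of the last kind for members not called. The number of members called moved by more than 1.5 times only when a sample was left out, to 5 in tumors and to 3 between the long-term groups of cells. With a sample left out it ranged from 2 to 5 in tumors and from 3 to 5 between the long-term groups. In tumors 5 were called without control tumor 2 (20.4% of all genes) or without MMTV-cre;Ctsd-/- tumor 3 (10.5%), and 2 without control tumor 4 (12.0%). Without control tumor 2 the added calls were Cxcl12 (log2 FC 0.725) and Csf1 (0.718), both higher in MMTV-cre;Ctsd-/- tumors. Without MMTV-cre;Ctsd-/- tumor 3 they were Ccl2 (-1.31) and Il6 (-1.85), both lower. Between the long-term groups 3 were called without Ctsd+/+ replicate 2, Ctsd+/+ replicate 3 or Ctsd-/- replicate 2 (16.9%, 18.8% and 17.4% of all genes).

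Sign changes concerned small or sparse differences. With limma-voom the long-term difference between lines was -0.10 for Cxcl16 and -0.35 for Il6, and the change of Ccl20 in Ctsd-/- cells -0.081. Within the 8 cell samples that share a code the 1% FCS difference of Il33 was 0.19, the long-term difference of Cxcl16 -0.36, and the changes in Ctsd-/- cells -1.54 for Cxcl5 and -0.36 for Cxcl16. With a sample left out, the tumor difference ranged from -0.15 to 0.47 for Cxcl10 and from -1.31 to 0.52 for Ccl2, and the 1% FCS difference from -2.06 to 0.41 for Il33. The long-term difference ranged from -0.54 to 0.31 for Cxcl16 and from -1.02 to 0.89 for Il6. Changes in Ctsd-/- cells ranged from -0.95 to 1.11 (Cxcl5), -0.021 to 0.61 (Cxcl12), -0.42 to 0.43 (Cxcl16), -0.30 to 0.54 (Ccl20) and -0.18 to 0.37 (Il33). Il33 ranged from -0.44 to 2.19 over time in Ctsd+/+ cells and from -2.05 to 0.59 in the change of the genotype difference. The cause was not tested.

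The replicate numbers were not taken as pairs, by a cut at 0.1. For no comparison was every correlation between the deviations of samples with the same number above it. Between lines in 1% FCS the cut was only just missed, with a lowest correlation of 0.09997 and a mean of 0.254. Leaving these groups unpaired therefore rests on the choice of cut, and the fit with the replicate number as a block is given below. The mean correlation was -0.111 in tumors and -0.134 to 0.254 between groups of cells. In 4 of the 6 pairs of cell groups all same-number correlations were above 0. Samples with different numbers averaged -0.126 to -0.0316 there. The deviations within a group sum to 0, so these averages mirror the same-number ones and are no separate observation. Replicate 1 of both short-term groups shares a code in the descriptions, and so does replicate 3 of both long-term groups. With the replicate number as a block in edgeR, 3 members were called in tumors (9.75% of all genes). Between lines 6 were called in 1% FCS (25%), without Ccl2 (adjusted p = 0.115), and 6 in 1% FCS LT (19.5%). Over time 0 were called in Ctsd-/- cells (1.59%) and 8 in Ctsd+/+ cells (23.4%). In the change of the genotype difference 7 were called (19.2%). The block turned the sign of Cxcl16 in the long-term difference (-0.056) and of Ccl20 in Ctsd-/- cells (-0.084). Il6, Ccl2 and Ccl20 rest on few counts, where 3 counts in a cell library are 0.0772 to 0.0916 CPM, and differences below that were not detectable at this depth.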

Other observations

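Of 16 other cytokines 13 were tested in cells. In Ctsd+/+ cells over time 5 rose and 2 fell, where 23.4% of all genes were called. Il1a rose (log2 FC 4.99, adjusted p = 0.000966), whereas Tgfb1 fell by 3.18 (adjusted p = 1.55e-06) and Il7 by 3.06 (adjusted p = 2.46e-05). In Ctsd-/- cells over time edgeR called 1, DESeq2 2 and limma-voom 0, where they called 1.48%, 3.31% and 1.14% of all genes. The call by edgeR was Tslp, an epithelial alarmin, which rose with a log2 FC of 2.65 (adjusted p = 0.0413). Il34, which encodes the other ligand of CSF1R, was lower in Ctsd-/- cells at both times (log2 FC -2.36 and -2.99, adjusted p = 0.000105 and 2.75e-05). Il23a and Csf3 were higher in 1% FCS Ctsd-/- cells (3.92 and 2.55, adjusted p = 0.000158 and 0.0017). Between lines 3 were higher and 3 lower in 1% FCS and 4 and 5 in 1% FCS LT, where 25.0% and 19.4% of all genes were called. In tumors 1 of 15 was higher and 1 lower at an unadjusted p under 0.1, where 8.44% and 8.27% of all genes were. Of the 15 interferon response genes, 1 rose and 1 fell in Ctsd+/+ cells over time, where 23.4% of all genes were called. They were Rsad2 (log2 FC 1.85, adjusted p = 0.0207) and Isg15 (-1.20, adjusted p = 0.00656). In Ctsd-/- cells 0 were called by edgeR, DESeq2 or limma-voom, where 1.48%, 3.31% and 1.14% of all genes were. There 0 of the 15 had an unadjusted p under 0.05 in any of these tests. Between lines 2 were called in 1% FCS and 5 in 1% FCS LT, against 25.0% and 19.4% of all genes. In tumors 1 of the 15 was higher at an unadjusted p under 0.1 (8.44% of all genes were).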
